A study of Mus musculus with 7 samples.

Results

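The genes described here are 36 interferon-stimulated genes, picked by symbol from the 55401 rows of a gene count table, and each symbol matched exactly 1 row. RNA-Seq was performed on knee tissue of male C57BL/6J mice that were 10 weeks old at destabilization of the medial meniscus (DMM), a surgical model of osteoarthritis, and that were euthanized 2 weeks later. By their labels, 4 samples were WT and 3 were Trpc1-/-, and each sample pooled 2 to 3 mice. Both groups had DMM of the right knee, so no unoperated or sham tissue enters the comparison. The labels name cartilage of the femoral head and tibial plateau, and the study's methods add subchondral bone. The Trpc1-/- mice lack an exon in the transmembrane region of TRPC1, a calcium-permeable channel, in all cells and not in chondrocytes alone. The study's methods give 3 WT and 4 Trpc1-/- samples, the reverse of the labels, and the labels were used. With samples grouped by label, the study's method, DESeq2, called 294 genes at an adjusted P under 0.05. The study reported the same number of changed genes, but stated a fold-change cutoff in addition to that adjusted P. No such cutoff was applied here.

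Interferons are secreted by cells that sense viral or misplaced nucleic acid. Type I interferons bind the receptor IFNAR1/IFNAR2, whose kinases JAK1 and TYK2 activate STAT proteins, and these join IRF9 in a complex, ISGF3, that binds the interferon-stimulated response element (ISRE) in the promoters of its target genes. ISG15, the product of Isg15, is a ubiquitin-like protein that is attached to other proteins by an E1, an E2, and an E3 enzyme and removed by USP18, and it also acts when free inside and outside the cell. Blood-forming and immune cells hold a basal level of interferon signaling, and many of these genes are read in bone marrow without infection. The question put to the counts was whether Isg15 differs between Trpc1-/- and WT samples alone or together with the other genes that interferon switches on.

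The 3 Trpc1-/- samples all had more Isg15 than any WT sample, with a mean 1.72 times that of WT, which was the largest log2 fold change (logFC) among the 36 genes. Of the other 35, 30 had a positive logFC (48.1% of all genes tested did), but only Rsad2, Ifit1, and Herc6 had genotypes without overlap (7.15% of all genes were higher without overlap). Within each genotype most members followed the same order of samples as Isg15. By edgeR's quasi-likelihood test none of the 36 genes was called at an adjusted P under 0.05 (background 0% of 16429 genes tested), and 4 had an unadjusted P under 0.05, all higher in Trpc1-/- samples (4.51% of all genes). DESeq2, the method of the study, called Isg15 and Rsad2, both higher (0.962% of all genes). Both are in the study's own list of top changed genes, from the same samples.

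ISGF3 binds the ISRE, so the promoter windows of RefSeq (GRCm38.p6, from 250 bases before to 50 bases after the start) were searched. The table held a window for 26 of the 36 members. The core of the ISRE, searched as 2 copies of GAAA separated by any 2 bases on either strand, lay in the windows of 12 of these 26 genes, a share of 46.2%, against 3.99% of 27025 genes in the table. The gamma-activated site, another interferon element, searched as TTC, any 3 bases, and GAA, lay in 5 of 26, a share of 19.2%, against 9.55% of all genes. Because this motif is its own reverse complement, both strands give the same sites. The windows shown next are those of the 4 genes without overlap between the genotypes and of 2 genes, Oas1a and Bst2, that hold the same motif but have a small logFC. Each is written 5' to 3' in the direction of the gene, from base -140 to base -1 before the RefSeq start, or to base -19 for Ifit1, whose GENCODE start lies upstream. Capitals mark the ISRE core, and a run longer than 1 copy holds overlapping copies.
Isg15 (chr4:156200819-156200958, minus strand): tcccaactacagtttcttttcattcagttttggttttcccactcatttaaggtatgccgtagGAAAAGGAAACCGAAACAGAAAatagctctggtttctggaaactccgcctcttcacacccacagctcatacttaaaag
Rsad2 (chr12:26456453-26456592, minus strand): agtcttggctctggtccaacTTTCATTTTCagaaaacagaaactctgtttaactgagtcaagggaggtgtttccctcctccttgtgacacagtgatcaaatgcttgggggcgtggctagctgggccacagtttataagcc
Ifit1 (chr19:34640749-34640870, plus strand): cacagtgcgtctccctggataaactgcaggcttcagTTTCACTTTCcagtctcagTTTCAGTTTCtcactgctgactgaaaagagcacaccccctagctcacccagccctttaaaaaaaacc
Herc6 (chr6:57580852-57580991, plus strand): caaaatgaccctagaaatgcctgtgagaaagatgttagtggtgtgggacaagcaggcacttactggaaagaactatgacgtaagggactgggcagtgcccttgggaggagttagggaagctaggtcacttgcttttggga
Oas1a (chr5:120907526-120907665, minus strand): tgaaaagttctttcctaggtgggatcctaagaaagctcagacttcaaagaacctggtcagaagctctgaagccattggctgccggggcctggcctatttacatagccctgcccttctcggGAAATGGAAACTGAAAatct
Bst2 (chr8:71537473-71537612, minus strand): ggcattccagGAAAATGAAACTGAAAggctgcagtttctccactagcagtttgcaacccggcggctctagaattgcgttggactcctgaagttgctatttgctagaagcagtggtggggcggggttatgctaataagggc

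Isg15 held 3 overlapping copies of the core, from base -78 to base -57, on the strand of the gene. Ifit1 held 2 separate copies and Rsad2 held 1 copy, both genes on the opposite strand, and the window of Herc6 held none. Oas1a and Bst2 each held 2 overlapping copies. The 12 members with the core had a median logFC of 0.26 (from -0.10 to 0.78), the 14 members with a window but no core had a median of 0.19 (from -0.064 to 0.40), and the 2 ranges overlapped. The 10 members not matched in the promoter table, among them Usp18, Mx1, and Zbp1, had a median of 0.14. A match is a string of letters and does not show binding.

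The libraries held between 52142451 and 118254070 counts on genes, and 3 counts, taken as the floor of detection, equaled 0.0244 to 0.0632 CPM (counts per 1e+06 counts, scaled by edgeR's TMM method in all values here). WT replicate 1 stood apart. It had the lowest total and the highest share of mitochondrial ribosomal RNA (mt-Rnr2, 19.6% of counts against 12.3% to 15.4% elsewhere), and its 11 neutrophil markers summed to 5577 CPM against 13015 to 17616 CPM in the other samples. The targeted gene, Trpc1 (chr9:95705082-95750375), was at 4.83, 4.55, 4.77, and 4.33 CPM in WT and at 3.35, 3.79, and 3.04 CPM in Trpc1-/- samples. The genotypes did not overlap, but the counts cover the whole gene and not the deleted exon, so they check the labels only in part. All 11 chondrocyte markers and all 7 osteoblast and osteocyte markers were expressed, as were erythroid and neutrophil markers, with S100a9 at 1596 to 6109 CPM and Col2a1 at 1453 to 3300 CPM. The tissue labeled articular cartilage thus held bone and marrow transcripts. In bulk samples of this kind, a change in the number of cells of a type and a change in RNA per cell cannot be told apart.

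All 36 members passed the filter on low counts (above 1 CPM in at least 2 samples). Set per kilobase of merged exons, which allows levels of different genes to be compared, the mean over all samples ran from 0.587 CPM per kb for Ifi44 to 68.6 CPM per kb for Ifi27l2a. Rsad2 was the next highest at 62.9 CPM per kb, and Samd9l was at 34.9 CPM per kb. Isg15, with 18.1 CPM per kb, was the fifth highest member and lay at the 88.2 percentile of all genes tested. In Trpc1-/- samples it had 23.8 CPM per kb against 13.8 in WT, so that it was at rank 4 among the members in Trpc1-/- samples and at rank 6 in WT. Its neighbors in the order over all samples were Lgals3bp (18.2 CPM per kb) and Bst2 (16.7 CPM per kb). Isg15 lay below Lgals3bp in each of the 4 WT samples and above both genes in each of the 3 Trpc1-/- samples.

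**Figure D1:**
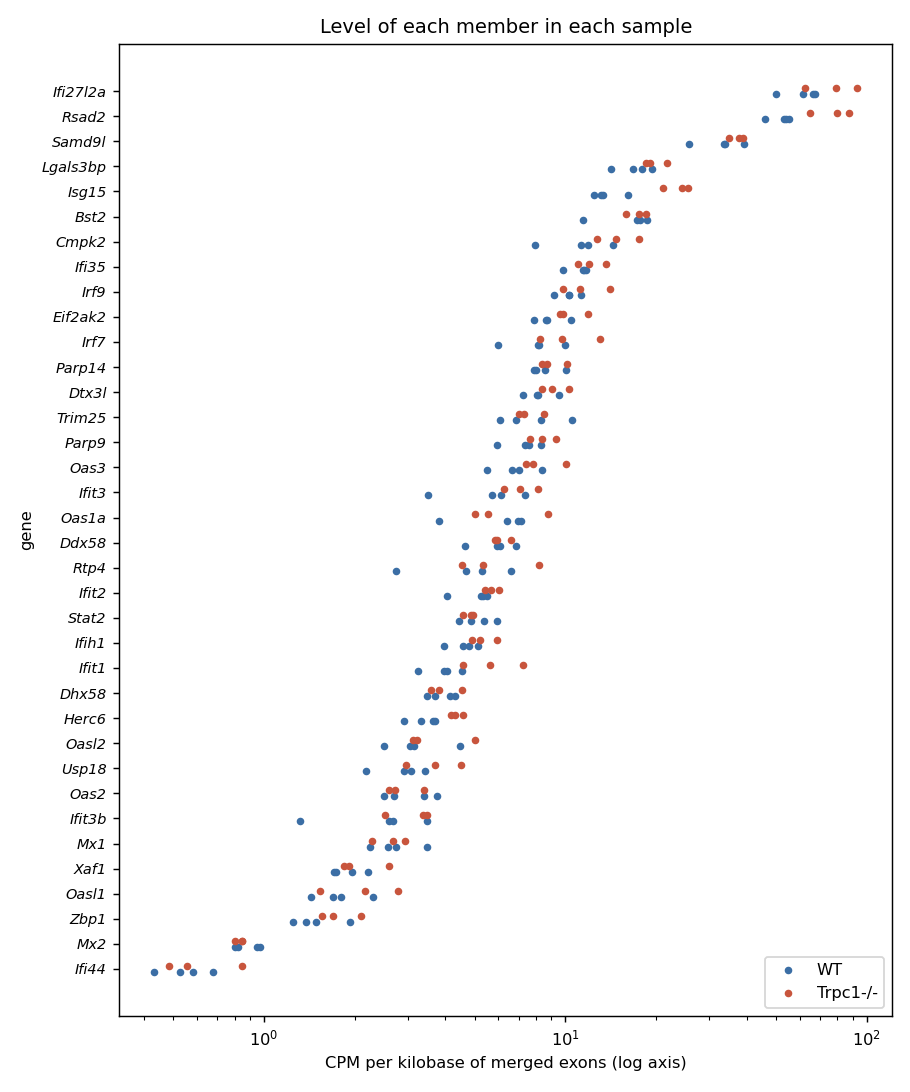
Level of the 36 members in each sample, as CPM per kilobase of merged exons on a log axis, with genes ordered by their mean and 1 point per sample (4 WT, 3 Trpc1-/-). The means span from 0.587 for Ifi44 to 68.6 for Ifi27l2a, and the points of the genotypes are separate for Isg15, Rsad2, Ifit1, and Herc6.

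Isg15 (ENSMUSG00000035692, chr4:156199424-156200818, minus strand, GRCm38) had 9.40, 9.91, 10.1, and 12.3 CPM in WT replicates 1 to 4 and 19.4, 16.0, and 18.5 CPM in Trpc1-/- replicates 1 to 3. The lowest Trpc1-/- sample lay above the highest WT sample. The means were 10.4 ± 1.26 CPM (SD, n = 4) and 18.0 ± 1.76 CPM (SD, n = 3). The logFC was 0.78 (SE 0.12), with an unadjusted P of 0.000163 in edgeR's test fitted across all genes, the 8th smallest of all genes tested, and an adjusted P of 0.305. With DESeq2 the adjusted P was 4.75e-06. Leaving out 1 sample at a time moved the logFC between 0.73 and 0.87, and the adjusted P of edgeR between 0.04996 (without WT replicate 1) and 0.933, while DESeq2 called the gene each time.

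Of the other genes that handle ISG15, Herc6, which encodes the main E3 ligase for ISG15 in mice, had 34.5, 30.9, 27.2, and 33.8 CPM in WT and 42.7, 39.9, and 38.8 CPM in Trpc1-/- samples. The genotypes did not overlap, and WT replicate 1 was the highest WT sample, the opposite of its place for Isg15. The logFC was 0.36 (SE 0.095, unadjusted P = 0.00574, adjusted P = 0.395 in edgeR and 0.0601 in DESeq2). Usp18, the protease that removes ISG15 and that also dampens signaling from IFNAR2, had the same logFC of 0.36 (SE 0.19) with overlapping genotypes (6.07 to 9.54 CPM in WT and 8.28 to 12.6 CPM in Trpc1-/- samples). Trim25, a ubiquitin and ISG15 ligase that acts on the RNA sensor RIG-I, had 60.7, 39.4, 34.9, and 48.0 CPM in WT and 41.8, 49.0, and 40.3 CPM in Trpc1-/- samples. Here WT replicate 1 held the highest value and the logFC was -0.064 (SE 0.19), which was positive (0.10) without that sample.

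The E1 and E2 enzymes of the same pathway are not members. Ube2l6, the E2, had 89.6, 128.7, 145.8, and 124.3 CPM in WT and 202.6, 154.4, and 190.9 CPM in Trpc1-/- samples. Every Trpc1-/- sample exceeded every WT sample, with a logFC of 0.58 and an SE of 0.17 (edgeR adjusted P = 0.408, DESeq2 0.0649). Uba7, the E1, had 101.3, 88.1, 86.1, and 95.0 CPM in WT and 99.6, 89.7, and 88.9 CPM in Trpc1-/- samples, a logFC of 0.0013 (SE 0.088) with full overlap. Of these 6 genes, the modifier, its E2, and its E3 Herc6 each had genotypes without overlap (7.15% of all genes were higher without overlap), and those of Uba7, Usp18, and Trim25 overlapped.

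**Figure D2:**
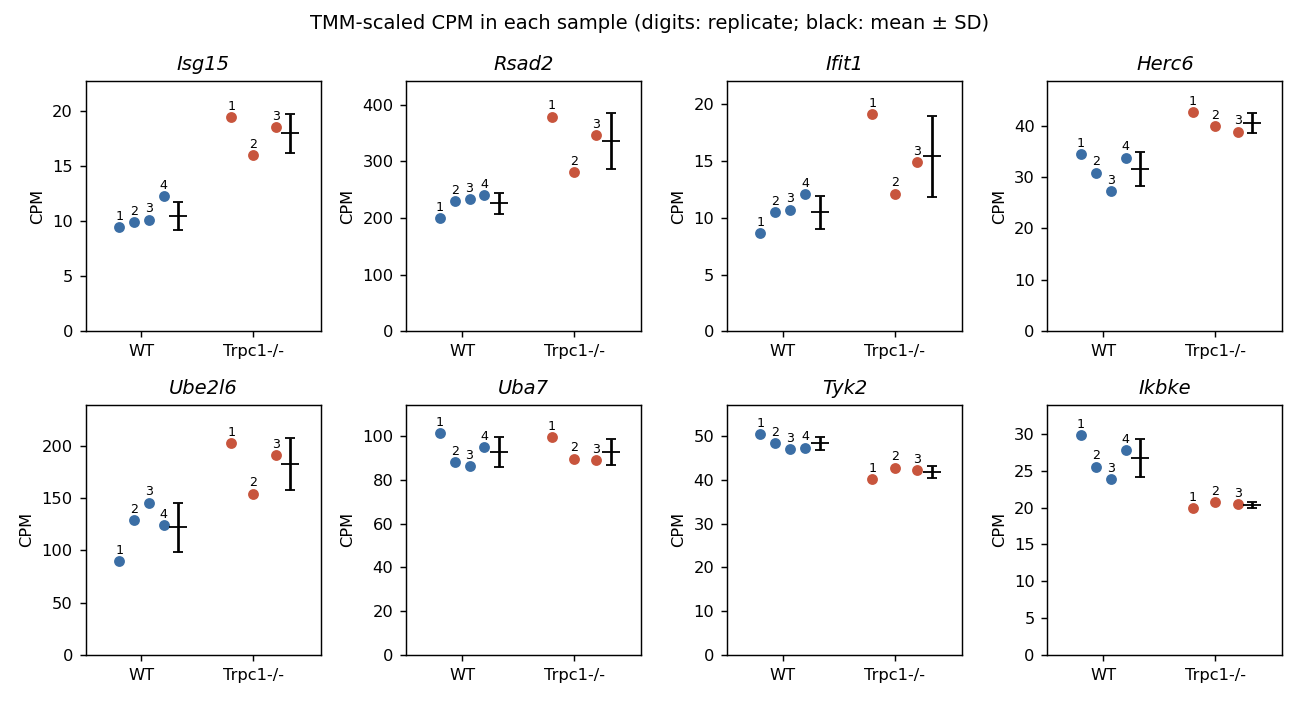
TMM-scaled CPM of 8 genes in each sample, with the digit giving the replicate and the black bar the mean ± SD (WT, n = 4; Trpc1-/-, n = 3). Isg15, Rsad2, Ifit1, Herc6, and Ube2l6 are higher and Tyk2 and Ikbke lower in every Trpc1-/- sample, and Uba7 overlaps.

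Rsad2 encodes viperin, an enzyme that makes a chain-terminating nucleotide. It had 199.0, 230.0, 233.4, and 240.2 CPM in WT and 378.9, 281.3, and 345.6 CPM in Trpc1-/- samples. All Trpc1-/- samples lay above WT, and Trpc1-/- replicate 2 was again the lowest of them. The means were 225.7 ± 18.3 CPM (SD, n = 4) and 335.3 ± 49.6 CPM (SD, n = 3), and the logFC was 0.57 (SE 0.13, unadjusted P = 0.00204, adjusted P = 0.395 in edgeR and 0.00279 in DESeq2). The DESeq2 call of Rsad2 was lost without Trpc1-/- replicate 1 (adjusted P = 0.0907), without Trpc1-/- replicate 3 (adjusted P = 0.144), and with the replicate number as a block (adjusted P = 0.134). Cmpk2 lies next to Rsad2 on chromosome 12 in the opposite direction and encodes a nucleotide kinase that supplies the substrate of viperin. It had 33.1, 47.0, 49.7, and 59.9 CPM in WT and 73.0, 53.0, and 61.5 CPM in Trpc1-/- samples, so that WT replicate 4 exceeded Trpc1-/- replicate 2. The SE of its logFC, 0.40, was 0.20 (edgeR adjusted P = 0.528).

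The 4 IFIT genes, whose products bind viral RNA ends and block translation, form a cluster on chromosome 19 and all had a positive logFC, from 0.18 for Ifit2 to 0.56 for Ifit1. Ifit1 had 8.62, 10.5, 10.7, and 12.1 CPM in WT and 19.2, 12.1, and 14.9 CPM in Trpc1-/- samples. The genotypes were separated only by the difference between 12.09 CPM in WT replicate 4 and 12.13 CPM in Trpc1-/- replicate 2. The logFC was 0.56 (SE 0.17, unadjusted P = 0.0125, adjusted P = 0.410 in edgeR and 0.119 in DESeq2). Ifit3 had 6.09, 9.97, 10.7, and 12.8 CPM in WT and 14.2, 10.9, and 12.4 CPM in Trpc1-/- samples, with 1 low WT sample and overlap (logFC 0.33, SE 0.23). Ifit2 had 15.9, 20.9, 20.6, and 21.6 CPM in WT and 23.7, 21.3, and 22.3 CPM in Trpc1-/- samples, with WT replicate 4 just above the lowest Trpc1-/- sample. Ifit3 and Ifit3b are near-identical copies, so reads may be split between them.

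The OAS genes encode enzymes that make 2'-5'-linked oligoadenylates on double-stranded RNA, with OASL proteins as relatives. Oas3 had 39.0, 47.2, 49.6, and 59.0 CPM in WT and 71.0, 55.2, and 52.4 CPM in Trpc1-/- samples, with a logFC of 0.29 (SE 0.16). WT replicate 4 lay within the Trpc1-/- range. Oas1a had 7.17, 12.04, 13.2, and 13.4 CPM in WT and 16.6, 9.48, and 10.5 CPM in Trpc1-/- samples, so that only 1 Trpc1-/- sample exceeded the WT range. Its logFC of 0.085 (SE 0.26) was negative without WT replicate 1 (-0.081) or without Trpc1-/- replicate 1 (-0.20). Oasl1, Oasl2, and Oas2 had logFC values of 0.26, 0.20, and -0.087, all with overlap. Oasl2 turned negative (-0.055) without Trpc1-/- replicate 1, and Oas2 turned positive (0.020) without WT replicate 1. Oas1a belongs to a cluster of similar genes, and its counts carry the same uncertainty as those of Ifit3.

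The MX proteins are dynamin-like GTPases that trap viral particles, and C57BL/6 mice carry a defective Mx1 allele. Mx2 is annotated by GENCODE as a polymorphic pseudogene. Mx1 had 8.49, 10.4, 9.77, and 13.2 CPM in WT and 11.1, 8.65, and 10.1 CPM in Trpc1-/- samples. Mx2 had 3.499, 3.42, 2.89, and 2.96 CPM in WT and 3.06, 2.90, and 3.07 CPM in Trpc1-/- samples. Both genes overlapped fully, with a logFC of -0.072 (SE 0.16) and -0.085 (SE 0.14), and Mx1 turned positive without WT replicate 4 (0.060), without Trpc1-/- replicate 2 (0.015), and with the library-name number as a covariate (0.075). They were the only role group in which no gene had a positive logFC.

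The 5 nucleic acid sensors all had a positive logFC, from 0.023 to 0.24, and none had separate genotypes. Eif2ak2, which encodes the double-stranded RNA kinase PKR, had 40.4, 44.5, 44.0, and 53.4 CPM in WT and 60.8, 49.3, and 50.4 CPM in Trpc1-/- samples (logFC 0.23, SE 0.12). Ddx58, which encodes RIG-I, had 32.9, 42.0, 42.8, and 48.5 CPM in WT and 46.6, 41.9, and 41.2 CPM in Trpc1-/- samples, with the highest value in a WT sample. Its logFC was 0.058 (SE 0.13), and that of Dhx58, which encodes the RIG-I relative LGP2, was 0.023 (SE 0.12). Without WT replicate 1 they were -0.040 and -0.029. Ifih1, which encodes MDA5, and Zbp1, a sensor of Z-form nucleic acid, had a logFC of 0.21 and 0.24.

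Among the transcription factors, Irf7, the amplifier of type I interferon production, had 22.5, 30.7, 30.8, and 37.6 CPM in WT and 49.2, 31.2, and 36.8 CPM in Trpc1-/- samples. WT replicate 4 exceeded 2 of the 3 Trpc1-/- samples, and the logFC was 0.36 (SE 0.20). Irf9, the DNA-binding part of ISGF3, had 49.3, 55.2, 55.5, and 60.8 CPM in WT and 75.6, 52.8, and 60.3 CPM in Trpc1-/- samples (logFC 0.19, SE 0.13). Stat2, a partner of IRF9 in ISGF3, had the lowest logFC of all members, -0.10 (SE 0.10), with 26.4 to 35.1 CPM in WT and 27.1 to 29.4 CPM in Trpc1-/- samples.

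Parp9, Parp14, and Dtx3l, which act in mono-ADP-ribosylation and ubiquitination after interferon, lie together on chromosome 16. Parp14 had 79.5, 74.7, 73.4, and 93.3 CPM in WT and 94.1, 81.1, and 78.1 CPM in Trpc1-/- samples. Dtx3l had 41.4, 46.5, 46.1, and 54.6 CPM in WT and 59.0, 47.8, and 51.9 CPM in Trpc1-/- samples. In both genes WT replicate 4 and Trpc1-/- replicate 1 were the highest of their genotypes, and the logFC values were 0.074 and 0.17, against 0.21 for Parp9. Parp9 and Dtx3l overlap at their starts on opposite strands. The authors' libraries and alignment were stranded.

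The other 8 effectors all had a positive logFC, from 0.087 for Bst2, which encodes the virus-tethering protein tetherin, to 0.35 for Ifi27l2a. Ifi27l2a had 23.2, 30.8, 31.3, and 28.4 CPM in WT and 36.6, 29.0, and 43.1 CPM in Trpc1-/- samples, and here Trpc1-/- replicate 3 and not replicate 1 was highest (logFC 0.35, SE 0.15, unadjusted P = 0.0541 in edgeR fitted across all genes). Samd9l, a growth-restraining gene of blood-forming cells, had 139.7, 182.3, 183.8, and 213.5 CPM in WT and 211.1, 189.0, and 204.7 CPM in Trpc1-/- samples, with its highest value in WT. Bst2 (-0.048 without WT replicate 1) and Ifi44 and Xaf1 (-0.10 and -0.018 without Trpc1-/- replicate 1) changed direction when that sample was left out, and Ifi35, Lgals3bp, and Rtp4 had logFC values of 0.13, 0.21, and 0.32 with overlapping genotypes.

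**Figure D3:**
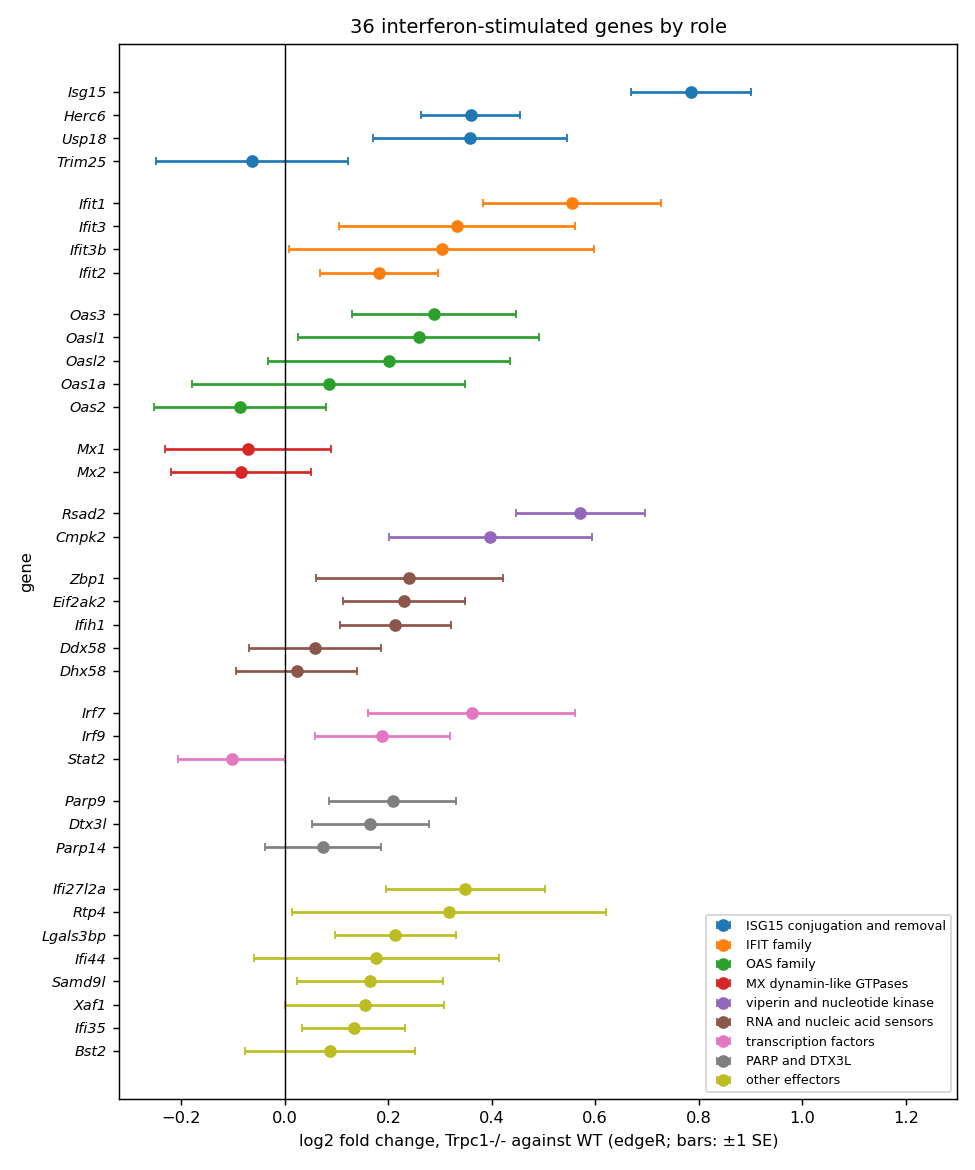
The logFC between Trpc1-/- and WT samples for the 36 members, grouped by role and colored by group, with bars of ±1 SE from edgeR. Isg15 lies farthest right at 0.78, Rsad2 and Ifit1 follow at 0.57 and 0.56, and Trim25, Oas2, Mx1, Mx2, and Stat2 lie left of 0.

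Over the 36 members, 31 had a positive logFC, against 48.1% of all genes tested, and the median was 0.20 against -0.0088 over all genes. The 31 were also counted with RLE and with upper-quartile factors. With 1 sample left out the count in edgeR ran from 25 to 32, with 25 without Trpc1-/- replicate 1, against 48.6% of all genes, and 29 without WT replicate 1, against 49.6%. At an unadjusted P under 0.05, edgeR gave 4 members higher in Trpc1-/- samples, of 36, where 4.51% of all genes were higher, and 0 lower, where 5.49% of all genes were lower. The 4 were Isg15, Rsad2, Herc6, and Ifit1. Every Trpc1-/- sample lay above every WT sample in the same 4 genes, against 7.15% of all genes, and below in none, against 6.42%. DESeq2 called 2 members higher, where it called 0.962% of all genes higher. The median depended on single samples and fell to 0.11 without WT replicate 1, to 0.092 without Trpc1-/- replicate 1, and was 0.28 without WT replicate 4. Without WT replicate 4, 11 members had an unadjusted P under 0.05 in edgeR, all higher, where 3.52% of all genes were higher, and 16 lay above WT without overlap, against 9.49% of all genes. Without Trpc1-/- replicate 2, 11 members did so, against 15% of all genes. On the same 6 samples as without WT replicate 4, with the replicate number as a block, 4 members had an unadjusted P under 0.05 in edgeR, where 1.78% of all genes were higher.

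The order of the samples was shared. WT replicate 1 was the lowest WT sample in 30 of the 36 members and in 43.9% of all genes tested. WT replicate 4 was the highest WT sample in 28 members, against 20.1% of all genes. Among Trpc1-/- samples, replicate 1 was the highest in 31 members (36.6% of all genes) and replicate 2 the lowest in 29 (37.2% of all genes). All 4 of these placings, which Isg15 has, were found together in 23 of the 36 members, Isg15 included, against 4.74% of all genes. Herc6, Trim25, Stat2, and Mx2 were among the 13 that departed from it. Each gene was read from the same 7 libraries, so these shares describe the samples and are given without a test.

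Measured from the mean of its own genotype on the scale of log2(CPM + 1), Isg15 was at -0.13, -0.059, -0.033, and 0.22 in WT replicates 1 to 4, and the median of the other 35 members was at -0.26, 0.0088, 0.042, and 0.22. In Trpc1-/- replicates 1 to 3, Isg15 was at 0.11, -0.15, and 0.045, and the other members were at 0.18, -0.14, and -0.030. Isg15 thus stood on the same side as the other members in WT replicates 1 and 4 and in Trpc1-/- replicates 1 and 2. The medians over all genes tested stayed within 0.0155 of 0 in each sample.

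Between the genotypes the pattern differed. Measured from the midpoint of the genotype means, the median of the other 35 members was at -0.36, -0.11, -0.075, and 0.13 in WT and at 0.25, -0.055, and 0.048 in Trpc1-/- samples, so that WT replicate 4 lay above 2 of the 3 Trpc1-/- samples. Isg15 was at -0.50, -0.43, -0.40, and -0.15 in WT and at 0.48, 0.21, and 0.41 in Trpc1-/- samples, without overlap. Whether its difference between the genotypes exceeds that of the other members was not tested.

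**Figure D4:**
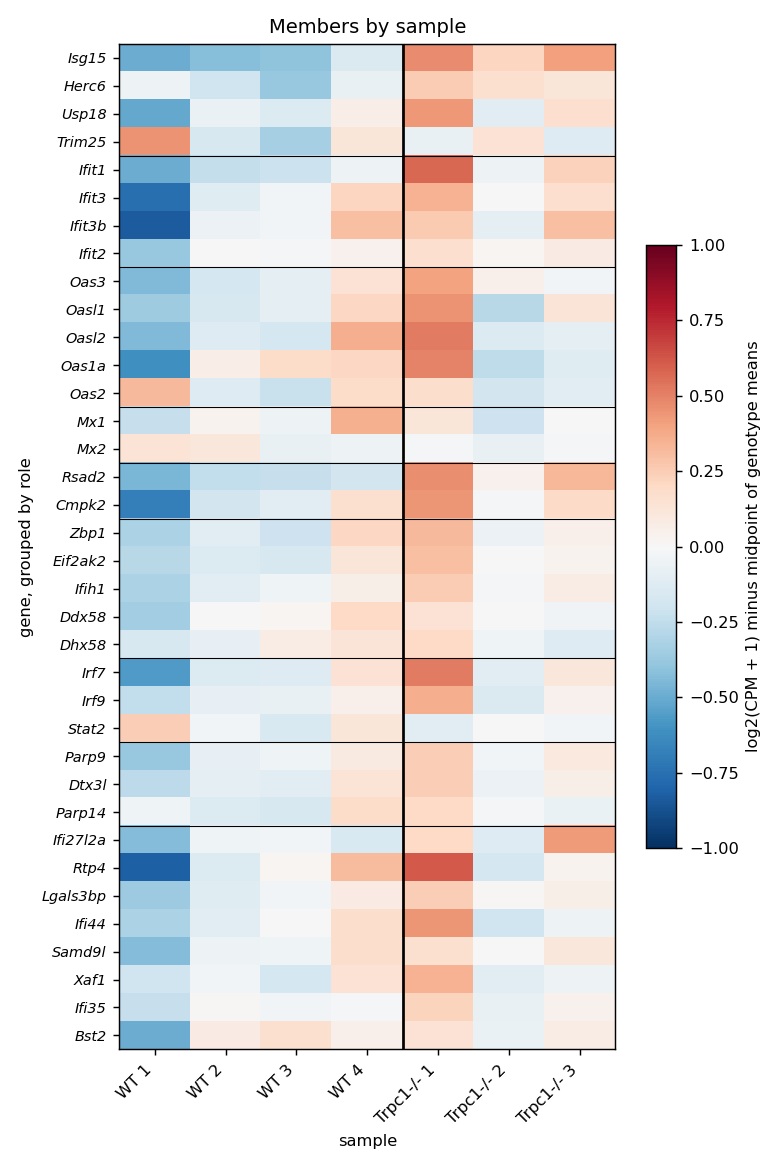
Members (rows, grouped by role) in each of the 7 samples (columns), colored by log2(CPM + 1) minus the midpoint of the genotype means. WT replicate 1 is blue in most rows and Trpc1-/- replicate 1 red, WT replicate 4 is red in many rows, and Isg15 is blue in all 4 WT and red in all 3 Trpc1-/- samples.

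The genes upstream were examined next. Of 21 interferon genes (type I, II, and III ligands), 0 passed the filter on low counts, and 12 had 0 counts in all samples. Ifnb1 had at most 3 counts in any sample, and the highest ligand value was that of Ifng, with 0.226 CPM in Trpc1-/- replicate 2. Apart from Ifng and Ifnz, no ligand exceeded 3 counts in a sample, so a difference in those 19 ligands was not detectable at this depth.

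Of 14 genes for the receptors and the JAK-STAT pathway, 14 were tested, 8 had a positive and 6 a negative logFC, and the median was 0.051. For the receptor chains, the logFC of Ifnar1 was -0.0026 (SE 0.068), that of Ifnar2 was 0.10 (SE 0.11), and that of Ifngr1 was 0.11 (SE 0.16), the last being negative (-0.030) without WT replicate 1. Jak1, a kinase bound to these receptors, was at 0.073 (SE 0.085). Tyk2, the kinase bound to IFNAR1, had 50.5, 48.4, 47.1, and 47.4 CPM in WT and 40.1, 42.8, and 42.3 CPM in Trpc1-/- samples. It was the one gene of this list with an unadjusted P under 0.05 and lay lower in every Trpc1-/- sample (logFC -0.21, SE 0.062, adjusted P = 0.407 in edgeR).

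Of 14 genes that sense nucleic acid or relay the signal to the interferon genes, 6 had a positive and 8 a negative logFC, with a median of -0.017. Ikbke, which encodes a kinase that acts on IRF3 and IRF7, had 29.8, 25.6, 23.9, and 27.8 CPM in WT and 19.9, 20.7, and 20.5 CPM in Trpc1-/- samples. Every Trpc1-/- sample lay below WT (logFC -0.39, SE 0.088, adjusted P = 0.395 in edgeR), and DESeq2 called it at an adjusted P of 0.0181. With 1 sample left out, DESeq2 called Ikbke without WT replicate 1 or 3 but not without WT replicate 2 or 4 or any Trpc1-/- replicate, where the adjusted P lay between 0.0803 and 0.311, nor with the replicate number as a block (0.659). Tlr7, a receptor for single-stranded RNA in endosomes, had a logFC of 0.24 (SE 0.11), and its genotypes overlapped.

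Of 51 further interferon-stimulated genes that were not members, 50 were tested, 40 had a positive logFC, and the median was 0.072. Only Ube2l6 had an unadjusted P under 0.05 in edgeR. The lowest logFC, -0.93 (SE 0.42), was that of Ifi208, a gene of the IFI200 family, with 1.07, 2.69, 3.01, and 3.63 CPM in WT and 1.93, 1.07, and 1.11 CPM in Trpc1-/- samples. WT replicate 1 had a value as low as the Trpc1-/- samples there.

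A further list held 22 genes best known as targets of interferon gamma, namely GTPases, chemokines, and Ciita. Of these, 19 were tested, all 19 had a positive logFC, and the median was 0.25, above that of the members. At an unadjusted P under 0.05, 6 were higher in Trpc1-/- samples in edgeR, against 4.51% of all genes, and 4 of the 19 lay above WT without overlap, against 7.15% of all genes. Iigp1, an immunity-related GTPase, had 12.9, 15.6, 16.1, and 14.1 CPM in WT and 19.6, 20.4, and 17.2 CPM in Trpc1-/- samples (logFC 0.38, SE 0.10, adjusted P = 0.395 in edgeR). Gbp7, a guanylate-binding protein, had 30.4, 37.9, 39.8, and 35.9 CPM in WT and 48.8, 42.5, and 43.7 CPM in Trpc1-/- samples (logFC 0.32, SE 0.10). WT replicate 4 was not the highest WT sample in these 2 genes. It was the highest in 7 of the 19 genes of this list, among them Tgtp1, Tgtp2, Irgm1, and Cxcl9, and in 28 of the 36 members. The difference between the 2 lists was not tested.

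Markers of several cell types shared part of the members' order of samples. The summed level of the 11 erythroid markers found lay between 3073 and 3451 CPM in WT and between 3877 and 4695 CPM in Trpc1-/- samples, with the highest value in replicate 1, and 7 of the 11 were higher at an unadjusted P under 0.05 in edgeR, against 4.51% of all genes. The summed level of the 11 chondrocyte markers was 6134 to 6669 CPM in WT and 3503, 6363, and 3804 CPM in Trpc1-/- replicates 1 to 3. The 11 markers of monocytes and macrophages summed to 686 CPM in WT replicate 1 and to 1139 to 1228 CPM in the other WT samples, against 1083 to 1209 CPM in Trpc1-/- samples. Of these 11, 9 had a positive logFC, against 48.1% of all genes tested, and the median was 0.20. At an unadjusted P under 0.05 in edgeR, 2 were higher, against 4.51% of all genes. DESeq2 called 1, Siglec1, higher, where it called 0.962% of all genes higher. The 6 B cell markers summed to 151.8 to 223.0 CPM in WT, highest in replicate 3. In Trpc1-/- replicates 1 to 3 they summed to 215.2, 258.6, and 234.1 CPM. The 7 markers of plasmacytoid dendritic cells, the main producers of type I interferon, summed to 215.1 to 249.8 CPM in WT. In Trpc1-/- samples they summed to 201.7 to 246.9 CPM. Most of this sum was Tcf4, with 125.5 to 196.8 CPM. On the scale of log2(CPM + 1), measured from the midpoint of the genotype means, the median of the 7 was -0.45 in WT replicate 1. It was -0.081 to 0.22 in the other samples. Every marker found had counts in each sample, and the erythroid marker Ahsp had no row. WT replicate 1, the lowest WT sample for most members, was also the lowest for neutrophil, macrophage, and B cell markers. By the median it was also the lowest for plasmacytoid dendritic cell markers, but by their sum, mostly Tcf4, it was the highest of all samples. Trpc1-/- replicate 1, the highest for most members, was the highest for erythroid and the lowest for chondrocyte markers. For B cell markers it was the lowest Trpc1-/- sample, and replicate 2, the lowest for most members, was the highest. By the sum, replicate 2 was the lowest Trpc1-/- sample for erythroid, neutrophil, and macrophage markers. It was the highest for chondrocyte and plasmacytoid dendritic cell markers as well. WT replicate 4, the highest WT sample for most members, had the highest sum of all samples for neutrophil and macrophage markers. Its sum was not the highest of the WT samples for erythroid, B cell, chondrocyte, or plasmacytoid dendritic cell markers. The part of cell makeup in the level of the members was not tested. Without WT replicate 1, Isg15 had a logFC of 0.74, and edgeR called 49 genes, Isg15 among them.

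**Figure D5:**
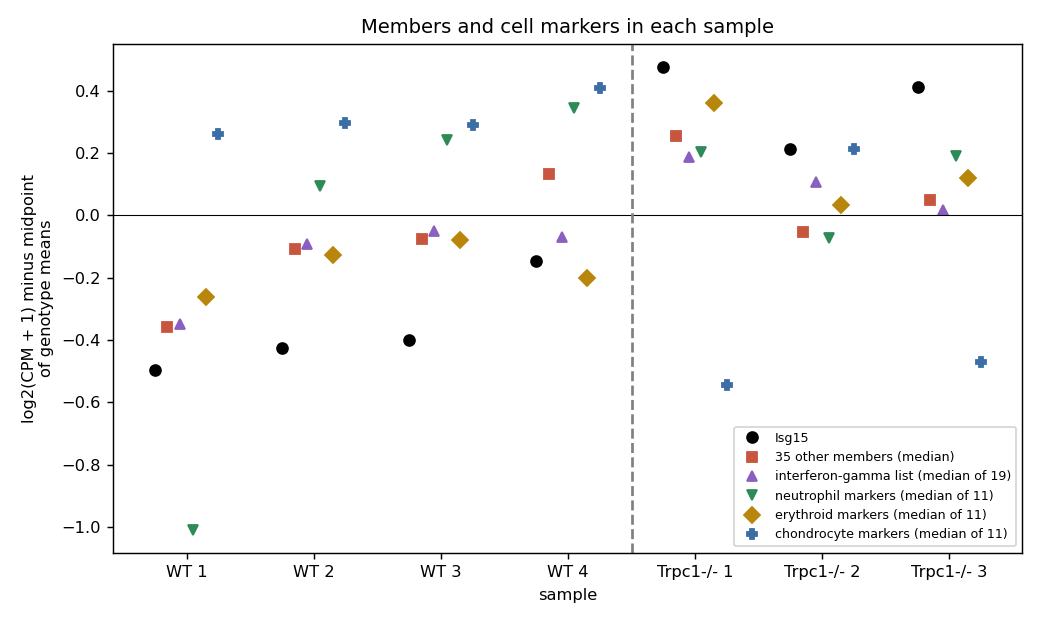
Median of log2(CPM + 1) minus the midpoint of the genotype means in each sample, for Isg15, the other 35 members, the 19 tested interferon gamma targets, and 3 lists of 11 cell markers. Isg15, the interferon gamma targets, and the erythroid markers are below 0 in all 4 WT and above 0 in all 3 Trpc1-/- samples, whereas the other members cross 0 in WT replicate 4 and Trpc1-/- replicate 2.

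The library-name numbers divide WT samples (replicates 1 and 2 in the 1300s, replicates 3 and 4 in the 1700s), whereas all Trpc1-/- samples are in the 1300s. What these numbers stand for is not given by the labels. Among the 5 samples in the 1300s, the logFC of Isg15 was 0.89, the median of the members was 0.33, and 11 members had an unadjusted P under 0.05 in edgeR, against 4.79% of all genes higher. With this division as a covariate in all 7 samples these were 0.89, 0.33, and 12, against 7.3% of all genes higher. No member passed an adjusted P of 0.05 in edgeR in either fit.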

How the data were processed

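Total RNA of 7 pooled samples (4 WT, 3 Trpc1-/-) was depleted of ribosomal RNA and sequenced as stranded paired-end libraries. Per the labels and the study's methods, the authors trimmed adapters with Cutadapt 2.5, aligned reads to GRCm38 with HISAT2 2.1.0, estimated coverage with StringTie 2.0.3, and deposited estimated counts per gene, which were whole numbers and not normalized. How reads shared by near-identical genes were assigned was fixed at that point. Gene positions and exon lengths came from GENCODE M21 (GRCm38, 55141 of 55401 rows matched), and promoter sequences from RefSeq (GRCm38.p6).

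Genes above 1 CPM in at least 2 samples (16429) were tested by quasi-likelihood in edgeR 4.0.16, under R 4.3.3 (TMM, genotype alone, Benjamini-Hochberg adjustment over all of them, threshold 0.05). The F statistic gave the SE of each logFC. Alternatives were DESeq2 1.42.0, limma-voom 3.58.1, RLE and upper-quartile factors, 2 other filters, the replicate number as a block, the library-name number (1300s or 1700s), and leaving out each sample. The fits were tested on simulated data. Floors of 3 counts cover counting error only, and depth lay between 52142451 and 118254070 counts. Samples are labeled as biological replicates, and no pair held identical values.

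The members and lists were chosen with earlier results of these data known, Isg15 included, so that lists are described by counts and medians and not tested. Values in every sample are given for Isg15, the first 2 members of each role by mean level per kilobase, members at an unadjusted P under 0.05 in edgeR or called by DESeq2, and genes of the pathway lists named in advance or with the smallest P in each direction. Of 229 list symbols, 2 were matched by an older symbol and 1 had no row. Not every gene that this rule admits is reported here.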

Additional observations from a re-analysis of the deposited data

Results flagged for a closer look

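In the 4 WT samples, 2 of the 54 genes examined had 1 sample far from the others by Dixon's test, and chance alone marks about 1 in 20 groups. For Ifi35, WT replicate 1 had 17.0 CPM against 19.7 to 20.3 CPM in the other WT samples, a gap of 0.836 of the range of the group. For Ifngr1, WT replicate 1 had 69.7 CPM against 104.3 to 111.2 CPM, a gap of 0.835 of the range. The 3 Trpc1-/- samples were too few for this test.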

How the results depend on the processing

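DESeq2 called 2 members (Isg15 and Rsad2) and 294 genes in all, with a logFC of Isg15 of 0.79, and limma-voom called 0 members and 1 gene, where edgeR called 0. Isg15 was higher in all alternatives tried, and 4 members had an unadjusted P under 0.05 with edgeR in both other normalizations and both other filters. This count was 12 with the library-name number (1300s or 1700s) as a covariate, where 7.3% of all genes were higher at that P, and 11 in the 1300s alone, where 4.79% were, against 4.51% in all samples with genotype alone. Leaving out 1 sample at a time, by edgeR and DESeq2 together, gave 0 to 3 members called, 3 to 14 at an unadjusted P under 0.05, 0 to 890 genes called, a logFC of Isg15 of 0.73 to 0.87, and 4 to 16 members without overlap. DESeq2 called 1 member without Trpc1-/- replicate 1 or 3, where it called 79 and 37 of all 16429 genes. It called 2 members without WT replicate 2, 3, or 4, where it called 62, 134, and 283 of all genes. It called 3 members without WT replicate 1 or Trpc1-/- replicate 2, where it called 890 and 367 of all genes. The number of members called was thus largest where the most genes were called. The 2 numbers did not always move together, since 1 member was called with 79 genes and 2 with 62. The 890 genes were called without WT replicate 1, and the 14 (DESeq2) and 16 members were counted without WT replicate 4, where 4.77% of all genes were higher at that P in DESeq2 and 9.49% without overlap, and the cause was not tested. The median logFC of the members ranged from 0.092 to 0.33.

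Same-numbered samples did not deviate together (correlations of -0.45, -0.34, and -0.0044 over genes). So few pairs cannot decide whether the replicate numbers pair samples. With the replicate block on replicates 1 to 3 of each genotype, edgeR called 0 members, with 4 at an unadjusted P under 0.05, a median of 0.27, and a logFC of Isg15 of 0.87, and DESeq2 called 1 member (Isg15, 0.87) and 53 genes. On the same samples with genotype alone, edgeR had 11 members at an unadjusted P under 0.05. The share of all genes higher at that P was 1.78% with the block and 3.52% with genotype alone.

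Of the other 53 genes named, 14 changed sign in at least 1 setting. Mx1 was at 0.057 with the block in edgeR and 0.060 in DESeq2, at 0.075 with the library-name number as covariate, and at 0.075 in the 1300s alone. Ifnar1 was at 0.0020 with DESeq2, 0.0022 with RLE factors, 0.026 without a filter, 0.011 with filterByExpr, 0.018 and 0.021 with the block in edgeR and DESeq2, and 0.039 with the number as covariate and in the 1300s. Uba7 was at -0.0086 with limma-voom, -0.012 with upper-quartile factors, and -0.030 with the number as covariate and in the 1300s. With 1 sample left out, the ranges that crossed 0 were -0.17 to 0.10 for Trim25, -0.20 to 0.25 for Oas1a, -0.21 to 0.024 for Oas2, -0.055 to 0.39 for Oasl2, -0.16 to 0.062 for Mx1, -0.040 to 0.14 for Ddx58, -0.085 to 0.10 for Dhx58, -0.011 to 0.16 for Parp14, -0.048 to 0.17 for Bst2, -0.10 to 0.34 for Ifi44, -0.018 to 0.25 for Xaf1, -0.031 to 0.027 for Ifnar1, -0.030 to 0.17 for Ifngr1, and -0.053 to 0.050 for Uba7. No interferon ligand passed the filter on low counts.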
